A study of Homo sapiens with 4 samples.

Results

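The subunits of activator protein 1 (AP-1) were examined in U937 cells, an established human myeloid line from a histiocytic lymphoma, without and with phorbol ester treatment. The 10 genes were taken by symbol from a deposited table of 60662 genes: FOS, FOSB, FOSL1, FOSL2, JUN, JUNB, JUND, BATF, BATF3 and ATF3. RNA was sequenced from 4 libraries, 2 of cells kept for 72 h without and 2 of cells kept for 72 h with 10 nM phorbol 12-myristate 13-acetate (PMA), 1 of each from 2 lots, after enrichment of polyadenylated RNA. The labels give the aim of the treatment as differentiation toward macrophage-like cells, describe no vehicle control, and do not say what separates the lots. Only 1 cell line at 1 dose and 1 time was sampled, so the early response to PMA was not measured.

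AP-1 is a family of dimers of basic leucine zipper (bZIP) proteins. JUN proteins pair with each other or with FOS proteins, whereas FOS proteins need a JUN-type partner. BATF proteins pair with JUN proteins, lack a transactivation domain of their own and bind DNA together with interferon regulatory factors in immune cells, and ATF3 is a stress-induced member that can repress as a homodimer. The dimers bind the motif known as the TPA response element, named for another abbreviation of PMA, which activates protein kinase C and through it the MAP kinases that act on AP-1. FOS, FOSB, JUN, JUNB and ATF3 are known as immediate early genes, induced within minutes of a stimulus and then usually shut off again.

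Promoter sequence was held by RefSeq (GRCh38.p14) for 8 of the 10 genes, in 9 windows of 300 bases each, from 250 bases before the annotated start to 50 after it. The stretches below run from 140 bases before the start to 15 bases after it, so that the motifs near the starts can be compared. They are shown for 6 subunits whose PMA and untreated levels did not overlap. The same held for JUND and BATF, whose windows were searched but are not shown. Capitals mark the motifs searched on both strands: TGACTCA (the TPA response element), TGACGTCA (the cyclic AMP response element), TGACATCA (a variant found in the JUN promoter), TGACG (the first 5 bases of the cyclic AMP response element, which overlap it), TATAAA, and the CArG box, to which serum response factor binds.
FOS (chr14:75278688-75278842, plus strand): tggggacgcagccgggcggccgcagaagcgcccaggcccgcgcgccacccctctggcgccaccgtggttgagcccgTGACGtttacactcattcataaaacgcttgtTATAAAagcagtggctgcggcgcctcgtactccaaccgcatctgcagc
FOSB (chr19:45467856-45468010, plus strand): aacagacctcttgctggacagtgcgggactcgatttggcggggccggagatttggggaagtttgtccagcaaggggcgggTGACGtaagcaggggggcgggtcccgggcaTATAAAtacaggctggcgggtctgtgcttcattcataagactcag
FOSL2 (chr2:28392718-28392872, plus strand): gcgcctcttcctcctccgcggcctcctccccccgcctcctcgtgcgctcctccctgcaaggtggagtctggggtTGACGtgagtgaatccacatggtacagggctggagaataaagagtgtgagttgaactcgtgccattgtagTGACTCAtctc
JUN (chr1:58784033-58784187, minus strand): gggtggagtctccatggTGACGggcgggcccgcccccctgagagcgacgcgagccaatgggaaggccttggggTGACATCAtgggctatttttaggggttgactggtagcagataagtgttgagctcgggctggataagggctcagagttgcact
JUNB (chr19:12791346-12791500, plus strand): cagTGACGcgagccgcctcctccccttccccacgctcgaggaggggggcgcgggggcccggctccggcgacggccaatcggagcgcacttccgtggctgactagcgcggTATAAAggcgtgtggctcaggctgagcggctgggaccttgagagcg
ATF3 (chr1:212565267-212565421, plus strand): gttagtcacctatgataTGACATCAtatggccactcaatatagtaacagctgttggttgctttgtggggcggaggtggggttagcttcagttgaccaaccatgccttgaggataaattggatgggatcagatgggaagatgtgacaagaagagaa

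FOS, FOSB and JUNB each had a TATAAA, which began at positions −33, −30 and −31 from the start (the first transcribed base is 1 and the base before it −1). TGACG began at −64 in FOS, −60 in FOSB, −66 in FOSL2, −123 in JUN and −137 in JUNB. FOSL2 had another at −201, on the opposite strand and outside the stretch shown. JUND had TGACG at −200 and −197, both inside its TGACGTCA, and at −86. The variant TGACATCA began at −67 in JUN and at −123 in ATF3, and was found in 2 of the 9 windows of the family against 2.61% of all 35116 promoter windows. TGACG was in 6 of the 9 windows (24.6% of all windows) and TATAAA in 4 (11.5%). ATF3 had 2 windows far apart, at chr1:212565157-212565456 (window 1) and chr1:212614768-212615067 (window 2). Its stretch above, with TGACATCA, comes from window 1. The gene table does not separate the 2 starts, so which of them gave the ATF3 mRNA was not measured. The TATAAA not listed above was in window 2 of ATF3 and began at −230. FOSL2 held the only TGACTCA, which began at base 5 after the start (4.95% of all windows), and JUND held the only TGACGTCA, at −200 (1.85%). None of the 9 windows held a CArG box (1.29%). The windows reach only 250 bases before the start, so a CArG box further upstream would not be found. The BATF window held none of the motifs searched. The motifs given are matches of letters in short windows, not measured sites.

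The libraries held 35739833 to 54915928 counts each, and 19080 to 23213 genes were above 0. Levels are in CPM, a gene's counts relative to the library total after TMM scaling. A log2 fold change sets PMA over untreated and is given ± its standard error. Of 10 myeloid markers, all had enough counts to be tested, and their sum was 669 and 1424 CPM in untreated lots 1 and 2 and 2243 and 1519 CPM in PMA lots 1 and 2. CD14 and ITGAM rose with PMA by the test used below, and the part of this in the results on AP-1 was not tested. The other 8 did not pass. CSF1R was at 0 and 1.74 CPM in untreated lots 1 and 2 and at 667 and 332 CPM in PMA lots 1 and 2 (edgeR adjusted p = 0.0657). SPI1 was at 126, 164, 307 and 343 CPM in untreated lots 1 and 2 and PMA lots 1 and 2, CD33 at 62.3, 71.1, 72.7 and 66.1 CPM. LYZ, at 136, 905, 211 and 126 CPM, held most of the sum in untreated lot 2, and its log2 fold change, like those of MNDA and CSF3R, was below 0 (−1.63, −0.42 and −0.24). The 4 T cell, 4 erythroid and 3 fibroblast markers were at 0 in all 4 libraries, and of 4 epithelial markers only EPCAM had a count, 1 in the PMA library of lot 2. The 4 B cell markers summed to 4.79 to 10.0 CPM, with MS4A1 at 0, and the 3 NK cell markers to 94.9 to 401 CPM, most of it from NKG7. In these bulk libraries, fewer cells with a transcript and less transcript per cell cannot be told apart.

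With PMA, 3 of the 10 subunits rose and 0 fell in the edgeR quasi-likelihood fit, adjusted after Benjamini and Hochberg over 16451 genes, which called 4.29% of all genes higher and 2.02% lower. The 3 were ATF3, JUN and FOSL2. At an unadjusted p under 0.05 there were 7 higher and 1 lower (14.6% and 12.5% of all genes), and DESeq2 also called 7 higher and 1 lower (13.1% and 10.3% of all genes). In 7 subunits both PMA libraries lay above both untreated ones, as in 31% of all genes, and in 2 subunits both lay below, as in 29.4%. When the fit was blocked on the lot, 6 subunits rose and 0 fell, against 3.59% and 1.48% of all genes, and the 3 added were FOS, JUNB and JUND. The median log2 fold change of the 10 was 2.94, against 0.00 for all genes tested. The authors' deposited table called 6 of the 10 higher and 0 lower (1.48% and 0.742% of its 60662 genes, or 3.33% and 1.67% of the 26916 with a count in any library): FOS, FOSB, FOSL2, JUN, JUNB and ATF3.

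**Figure D1:**
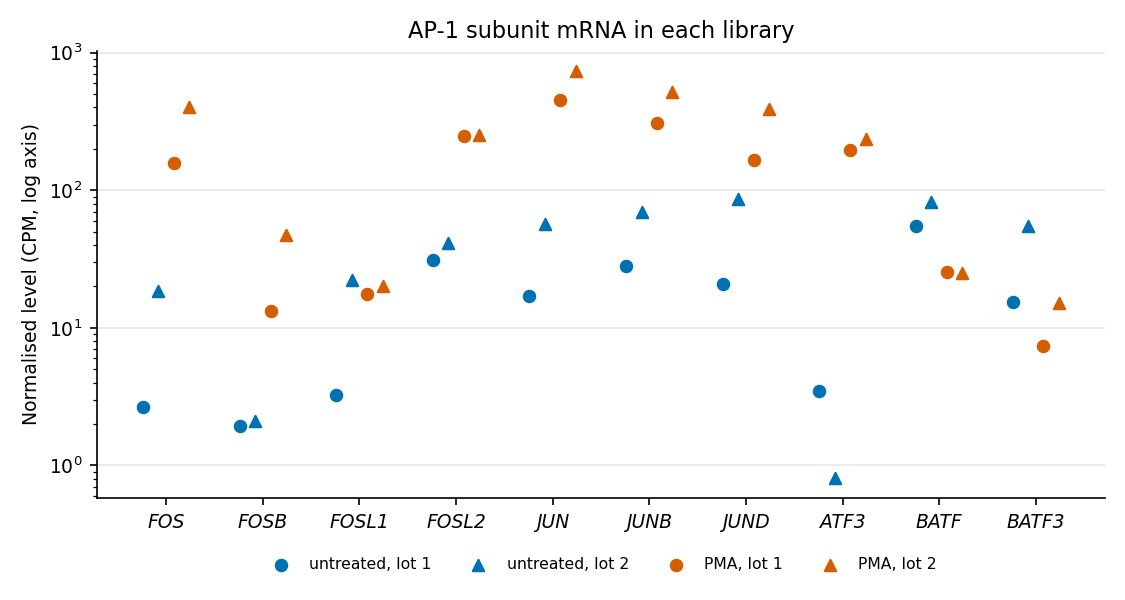
Normalised level (CPM, log axis) of each AP-1 subunit in each of the 4 libraries; colour gives the treatment and the marker shape gives the lot, with 1 point per library and no error bars. In 7 subunits both PMA points lie above both untreated points, in BATF and BATF3 both lie below, and the FOSL1 points overlap.

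FOS (ENSG00000170345.10), the founding member of its family and a partner of JUN proteins, stood at 2.64 and 18.4 CPM in untreated lots 1 and 2 and at 157 and 404 CPM in PMA lots 1 and 2. Both PMA libraries were far above both untreated ones, but the untreated libraries also differed from each other. The ratio of the group means was 26.7, and the log2 fold change of 4.74 ± 1.12 did not pass the test (edgeR adjusted p = 0.0719). In the lot-blocked fit it was 5.17 ± 0.54 and passed (adjusted p = 0.0343), and it also passed without untreated lot 1 (0.0374), without untreated lot 2 (0.0265) and without PMA lot 1 (0.0284). It did not pass without PMA lot 2 (0.0977), and the authors' deposited table gives a q-value of 0.000202.

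FOSB (ENSG00000125740.14), a close relative of FOS with a shorter splice form known from chronic stimulation, was at 1.93 and 2.09 CPM in untreated lots 1 and 2 and at 13.3 and 47.5 CPM in PMA lots 1 and 2. The untreated libraries were alike and the PMA libraries differed by 3.56 times. The log2 fold change was 3.92 ± 0.77 and was just short of the threshold (edgeR adjusted p = 0.0527, and 0.0610 in the lot-blocked fit). The authors' deposited table gives FOSB a q-value of 0.0286. The fold change passed with DESeq2 (adjusted p = 1.42e-06), and in edgeR with no filter on level (0.0357) and with a filter of 5 CPM (0.0274). It passed without PMA lot 1 (0.0193) and was furthest from passing without PMA lot 2 (0.177). FOSB overlaps ERCC1 on the opposite strand, a gene with 4005 to 6939 counts per library against 90 to 2194 for FOSB, and without known strand use reads in the shared stretch cannot be assigned. Its splice forms were not separated in the gene table.

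FOSL2 (FRA-2, ENSG00000075426.12), a FOS relative that lacks the FOS transactivation domain, rose from 30.9 and 41.1 CPM to 248 and 252 CPM in lots 1 and 2. The PMA libraries were nearly equal, at 250 ± 3.07 CPM with PMA (mean ± SD, n = 2), 6.95 times the untreated mean. The log2 fold change was 2.80 ± 0.33 (edgeR adjusted p = 0.0253, and 1.73e-11 to 0.0712 over the alternatives). The call was lost without PMA lot 1 (0.0601) and without PMA lot 2 (0.0712).

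FOSL1 (FRA-1, ENSG00000175592.9), the other short FOS relative, had overlapping groups. It was at 3.26 and 22.1 CPM in untreated lots 1 and 2 and at 17.7 and 20.3 CPM in PMA lots 1 and 2, so that 3 libraries were close together and untreated lot 1 stood below them. The log2 fold change was 0.58 ± 0.91 (edgeR adjusted p = 0.742), and −0.28 without untreated lot 1 (adjusted p = 0.629). It passed in none of the 11 other fits at the 0.05 threshold, whose adjusted p ran from 0.0588 to 0.909.

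JUN (ENSG00000177606.7), the subunit that can act as a homodimer or with any FOS protein, rose from 17.1 and 56.4 CPM to 452 and 735 CPM in lots 1 and 2. The lowest PMA library was thus well above the highest untreated one. The ratio of the group means was 16.2, and the log2 fold change was 4.01 ± 0.72 (edgeR adjusted p = 0.0440, and 4.31e-08 to 0.0553 over the alternatives). The call was lost with upper-quartile factors (0.0553) and without PMA lot 2 (0.0506). In the lot-blocked fit the fold change was 4.21 ± 0.43 (adjusted p = 0.0343).

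JUNB (ENSG00000171223.6), a JUN relative often opposed to JUN in cell growth, was at 28.3 and 70.0 CPM untreated and at 310 and 522 CPM with PMA in lots 1 and 2. Its groups did not overlap, at a mean ratio of 8.46. The log2 fold change of 3.08 ± 0.59 missed the threshold by a narrow margin (edgeR adjusted p = 0.0504) and passed in the lot-blocked fit (3.17 ± 0.34, adjusted p = 0.0344). Each of untreated lot 1 (0.0344), untreated lot 2 (0.0265) and PMA lot 1 (0.0385) could be left out with a call gained, while without PMA lot 2 the adjusted p was 0.110. JUNB overlaps HOOK2 on the opposite strand, which had 378 to 860 counts against 1788 to 24110 for JUNB.

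JUND (ENSG00000130522.6), the JUN relative that is usually present without a stimulus, was at 20.9 and 86.0 CPM untreated and at 166 and 391 CPM with PMA in lots 1 and 2. The highest untreated library was closer to the lowest PMA library than for JUN or JUNB. The log2 fold change was 2.38 ± 0.82 and did not pass (edgeR adjusted p = 0.146, and 0.459 without PMA lot 2), whereas in the lot-blocked fit it was 2.59 ± 0.37 and did (adjusted p = 0.0428). The authors' deposited table gives JUND a q-value of 0.0929.

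ATF3 (ENSG00000162772.17) had the highest fold change of the 10, from 3.47 and 0.811 CPM untreated to 197 and 237 CPM with PMA in lots 1 and 2. The untreated values rested on 219 and 35 counts, and their exact Poisson 95% intervals, 3.02 to 3.96 and 0.565 to 1.13 CPM, cover counting error only and hold only if the deposited values are read counts, which no source used here states. The ratio of the group means was 102, and the log2 fold change was 6.65 ± 0.87 (edgeR adjusted p = 0.0274). ATF3 passed the 0.05 threshold in all 11 other fits (adjusted p of 6.02e-19 to 0.0363), which include the 4 fits that left out 1 library each. It was the only one of the 10 of which this held.

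BATF (ENSG00000156127.8) and BATF3 (ENSG00000123685.9), the subunits that act with interferon regulatory factors, lay lower with PMA. BATF was at 54.8 and 82.3 CPM untreated and at 25.4 and 25.1 CPM with PMA in lots 1 and 2. Its PMA libraries were nearly equal and both were below the untreated ones, but the log2 fold change of −1.44 ± 0.38 did not pass (edgeR adjusted p = 0.0867, and 0.104 in the lot-blocked fit). It passed with DESeq2 (0.00797) and without untreated lot 1 (0.0276), and was at 0.521 without PMA lot 2. BATF3 was at 15.5 and 54.8 CPM untreated and at 7.40 and 15.2 CPM with PMA. The PMA library of lot 2 was level with the untreated library of lot 1, and the log2 fold change was −1.63 ± 0.76 (adjusted p = 0.250, and 0.0481 to 0.693 over the alternatives, with the lowest value without untreated lot 1).

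**Figure D2:**
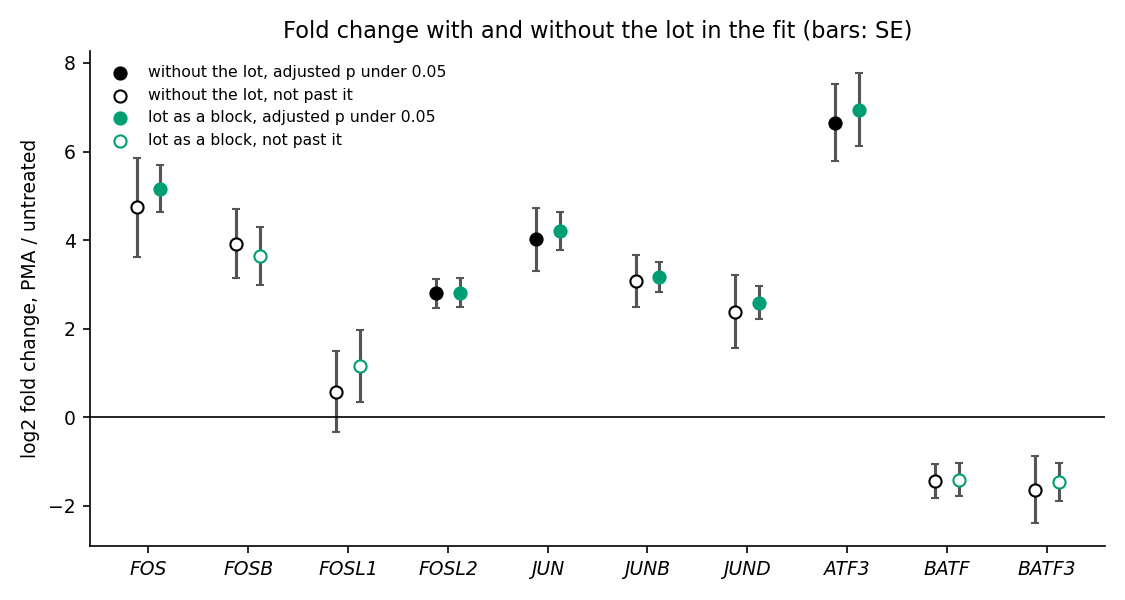
Log2 fold change of PMA over untreated for each AP-1 subunit with its standard error (bars), from the edgeR fit on 4 libraries without the lot (black) and blocked on the lot (green). Filled points are past an adjusted p of 0.05: ATF3, JUN and FOSL2 in both fits, and FOS, JUNB and JUND in the blocked fit, where their standard errors are smaller.

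Within lots, the ratios of PMA to untreated were above 1 in both lots for 7 subunits and below 1 in both for BATF and BATF3. They are given for each lot without a test, since a lot holds 1 library per treatment. For FOS the ratio was 59.4 in lot 1 and 22.0 in lot 2. For JUN it was 26.5 and 13.0. For ATF3 it was 57.0 and 292, the latter on 35 untreated counts. Lot 1 gave the higher ratio for FOS, JUN, JUNB (11.0 and 7.45), JUND (7.94 and 4.55), FOSL2 (8.02 and 6.15) and FOSL1 (5.42 and 0.916), and lot 2 for ATF3 and FOSB (6.90 and 22.7). The log2 ratio of BATF was −1.11 in lot 1 and −1.71 in lot 2, and that of BATF3 −1.07 and −1.85.

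**Figure D3:**
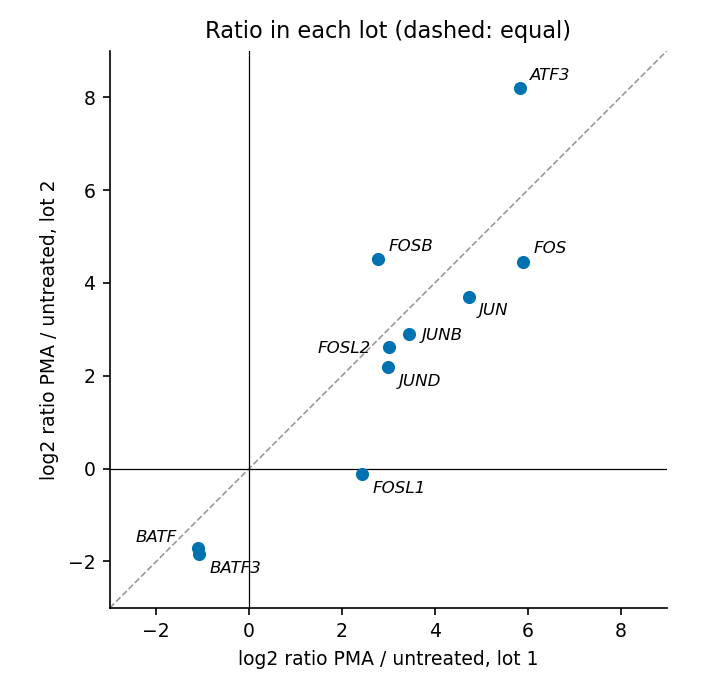
Log2 ratio of PMA to untreated CPM in lot 1 (x axis) and lot 2 (y axis), 1 point per AP-1 subunit; the dashed line marks equal ratios. ATF3 and FOSB lie above the line, and FOSL1 is above 0 in lot 1 (2.44) and near 0 in lot 2 (−0.13).

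The lots themselves differed in AP-1 mRNA. In 8 of the 10 subunits lot 2 was above lot 1 both without and with PMA, as in 25.9% of all genes tested. For FOS the level in lot 2 was 6.96 times that in lot 1 without PMA and 2.57 times with it. JUND stood at 4.11 and 2.35 times and BATF3 at 3.53 and 2.06 times. These 3 were at least 2 times higher in lot 2 in both groups, as were 4.5% of all genes. The exceptions to the direction were ATF3, which without PMA was lower in lot 2 (0.811 against 3.47 CPM), and BATF, whose PMA levels were nearly equal. Of 18 other immediate early genes tested, 6 were higher in lot 2 in both groups. EGR1 and IER2, named here after their values were seen, were at 0.807 and 25.7 and at 46.1 and 178 CPM in untreated lots 1 and 2, and at 7.98 and 278 and at 53.7 and 190 CPM in PMA lots 1 and 2. The share of counts from mitochondrial genes was also higher in lot 2, at 8.58% and 5.99% without and with PMA against 3.66% and 2.81% in lot 1, and its part in the lot difference was not tested.

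Levels of different subunits were compared as CPM per kilobase of the longest annotated transcript (GENCODE release 29). Without PMA, BATF had the highest level, 69.9 ± 19.8 CPM per kilobase (mean ± SD, n = 2), and its range did not overlap that of the next, JUND at 28.7 ± 24.7. Below it, each subunit overlapped its neighbour in the order JUND, JUNB, BATF3, JUN, FOSL1, FOSL2, FOS, ATF3 and FOSB, the last at 0.532 ± 0.0292. With PMA the order was JUNB (228 ± 82.3), JUN (168 ± 56.6), JUND (149 ± 85.3), FOS (130 ± 80.9) and ATF3 (103 ± 13.4), each of which overlapped the next. ATF3, FOSL2 (37.3 ± 0.457), BATF (25.8 ± 0.212) and FOSL1 (11.4 ± 1.10) followed each other without overlap, and FOSB and BATF3 were last. The sum over the 10 subunits was 104 and 237 CPM per kilobase in untreated lots 1 and 2 and 634 and 1098 in PMA lots 1 and 2.

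As shares of that sum, the BATF pair made up 60.1% and 45.3% in untreated lots 1 and 2 and 4.59% and 2.92% in PMA lots 1 and 2. The 3 JUN genes made up 30.4% and 42.5% without PMA and 61.1% and 64.1% with it. The 4 FOS genes went from 7.98% and 12.0% to 19.5% and 22.7%, and ATF3 from 1.58% and 0.163% to 14.8% and 10.3%. Within the FOS genes, FOS itself held 1.18% and 3.60% of the sum without PMA and 11.5% and 17.0% with it, while FOSL1 went from 1.88% and 5.61% to 1.67% and 1.11%. The shares depend on transcript length: BATF has the shortest transcript used here, 980 nt, and without division by length its mean untreated share was 24.8% in place of 44.6%. Without it, the BATF pair went from a mean of 35.5% untreated to 1.79% with PMA, the JUN genes from 43.0% to 60.2%, and ATF3 from 1.06% to 10.7%. The FOS genes then went from 20.5% to 27.3%, a smaller step than the 10.0% to 21.1% per length, since FOSL2 has the longest transcript, 6708 nt. These shares are a description of mRNA and carry no test.

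**Figure D4:**
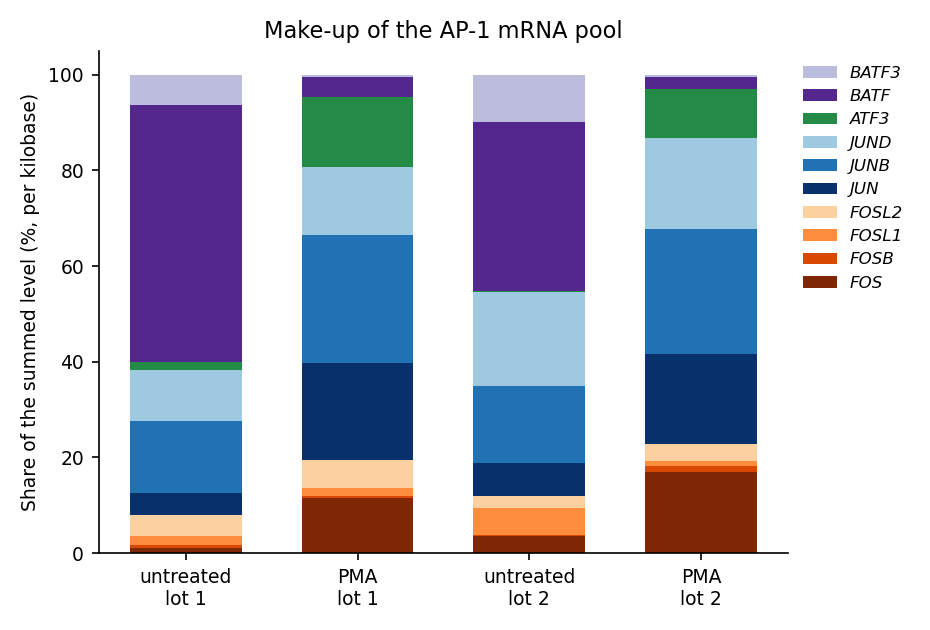
Share of each AP-1 subunit in the summed level of the 10 (percent, CPM per kilobase of the longest transcript), 1 stacked bar per library. The BATF and BATF3 segments fill 60.1% and 45.3% of the untreated bars and 4.59% and 2.92% of the PMA bars, where the JUN genes fill 61.1% and 64.1%.

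Related genes were read from lists in the same fit, beside the shares of all genes tested: 4.29% higher and 2.02% lower past the adjusted threshold, 14.6% and 12.5% at an unadjusted p under 0.05, and 13.1% and 10.3% by DESeq2. Of 33 other bZIP genes, 30 were tested, and 4 rose and 0 fell, with 13 higher and 2 lower at an unadjusted p under 0.05 and 12 and 2 by DESeq2. The median log2 fold change of the list was 1.30. BATF2, an interferon-inducible relative of BATF, rose from 0.285 and 0.811 to 18.8 and 25.2 CPM (log2 fold change 5.34 ± 0.77, edgeR adjusted p = 0.0310). The small MAF protein gene MAFF rose by 3.77 ± 0.45 (adjusted p = 0.0253, and 0.0571 without PMA lot 2), and CEBPB, a factor of the acute-phase response, rose by 2.14 ± 0.34 (adjusted p = 0.0364, and 0.0976 and 0.195 without PMA lots 1 and 2 in turn).

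Of the 2 interferon regulatory factors known as BATF partners, IRF8 fell from 170 and 127 CPM to 24.1 and 12.5 CPM (log2 fold change −3.02 ± 0.47, edgeR adjusted p = 0.0357). The call was lost without PMA lot 1 (0.0509) and without PMA lot 2 (0.153). IRF4 was at 1.45 CPM or below in every library.

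Upstream genes were read beside the shares of all genes, 4.29% higher and 2.02% lower past the adjusted threshold. At an unadjusted p under 0.05 these shares were 14.6% and 12.5%, and by DESeq2 13.1% and 10.3%. Of 20 MAP kinase cascade genes, 19 were tested, and 1 rose and 0 fell (5 and 0 at an unadjusted p under 0.05, 4 and 0 by DESeq2), with a median log2 fold change of 0.47. The 1 was RPS6KA3, the kinase RSK2, at 120 and 51.2 CPM without and 617 and 510 CPM with PMA (edgeR adjusted p = 0.0483, and 0.0957 and 0.0712 without PMA lots 1 and 2 in turn). Of 12 genes for factors that act on the FOS and JUN promoters, 1 rose and 0 fell (4 and 0 at an unadjusted p under 0.05, 3 and 0 by DESeq2), with a median of 0.63. With lists this short, 1 call each is no result about the lists. The call among the promoter factors was MEF2C, which went from 2.93 and 3.80 to 26.0 and 27.6 CPM (edgeR adjusted p = 0.0345, and 0.0978 and 0.107 without PMA lots 1 and 2 in turn). SRF, serum response factor, was at 160 and 197 CPM without and 159 and 174 CPM with PMA (adjusted p = 0.873).

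Among 10 genes of AP-1 mRNA and protein turnover, 2 rose and 0 fell (2 and 3 at an unadjusted p under 0.05, 2 and 1 by DESeq2). Of all genes, 4.29% were higher and 2.02% lower, 14.6% and 12.5% at an unadjusted p under 0.05, and 13.1% and 10.3% by DESeq2. The median log2 fold change of the list was 0.07. The 2 that rose, of which ZFP36 is also counted among the immediate early genes, encode proteins that bind AU-rich elements and speed mRNA decay. ZFP36L1 rose from 0.965 and 3.38 to 954 and 1298 CPM (edgeR adjusted p = 0.0211). ZFP36 (tristetraprolin) rose from 12.5 and 19.0 to 142 and 215 CPM (3.50 ± 0.44, adjusted p = 0.0264, and 0.0626 without PMA lot 2).

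Of 20 other immediate early genes, 18 were tested, and 10 rose and 0 fell (14 and 0 at an unadjusted p under 0.05 and also by DESeq2). Of all genes, 4.29% were higher and 2.02% lower, 14.6% and 12.5% at an unadjusted p under 0.05, and 13.1% and 10.3% by DESeq2. The median log2 fold change of the list was 3.47. TRIB1, a pseudokinase gene, rose from 0.886 and 0.719 to 226 and 155 CPM (7.88 ± 0.48, edgeR adjusted p = 0.0148). The orphan nuclear receptor NR4A3 was at 0 in both untreated libraries and at 136 and 180 CPM with PMA (adjusted p = 0.0148), and EGR2, a zinc finger factor, likewise at 0 and then at 269 and 257 CPM (adjusted p = 0.0148). EGR3, also at 0 without PMA, was at 55.9 and 121 CPM with it. IER2 was not among the called genes (adjusted p = 0.948), nor was EGR1 (adjusted p = 0.372, and 0.0343 in the lot-blocked fit).

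Of 22 textbook AP-1 target genes, 19 were tested, and 11 rose and 0 fell (16 and 1 at an unadjusted p under 0.05, 16 and 0 by DESeq2). The shares of all genes were again 4.29% higher and 2.02% lower, 14.6% and 12.5% at an unadjusted p under 0.05, and 13.1% and 10.3% by DESeq2. Their median log2 fold change was 5.11, or 4.96 with genes at 0 in a group set to a floor of 3 counts per library. PLAUR, the urokinase receptor, rose from 62.8 and 83.2 to 6665 and 7052 CPM (6.55 ± 0.36, edgeR adjusted p = 0.0148), and HBEGF, a growth factor of the EGF family, from 6.71 and 7.02 to 164 and 263 CPM (4.96 ± 0.43, adjusted p = 0.0189). The integrin subunit ITGAX rose from 12.5 and 12.6 to 1908 and 2705 CPM (7.53 ± 0.41, adjusted p = 0.0148), and the gelatinase MMP9 was at 0 in both untreated libraries and at 1604 and 1916 CPM with PMA (adjusted p = 0.0148). Not all members lay higher: PLAU, the urokinase whose promoter is a classic AP-1 example, was at 169 and 62.4 CPM without and 48.1 and 25.7 CPM with PMA (adjusted p = 0.174), and the metallothionein gene MT2A was at 293 and 94.1 and at 48.2 and 87.7 CPM (adjusted p = 0.222). Whether AP-1 acted on any of these genes was not measured.

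**Figure D5:**
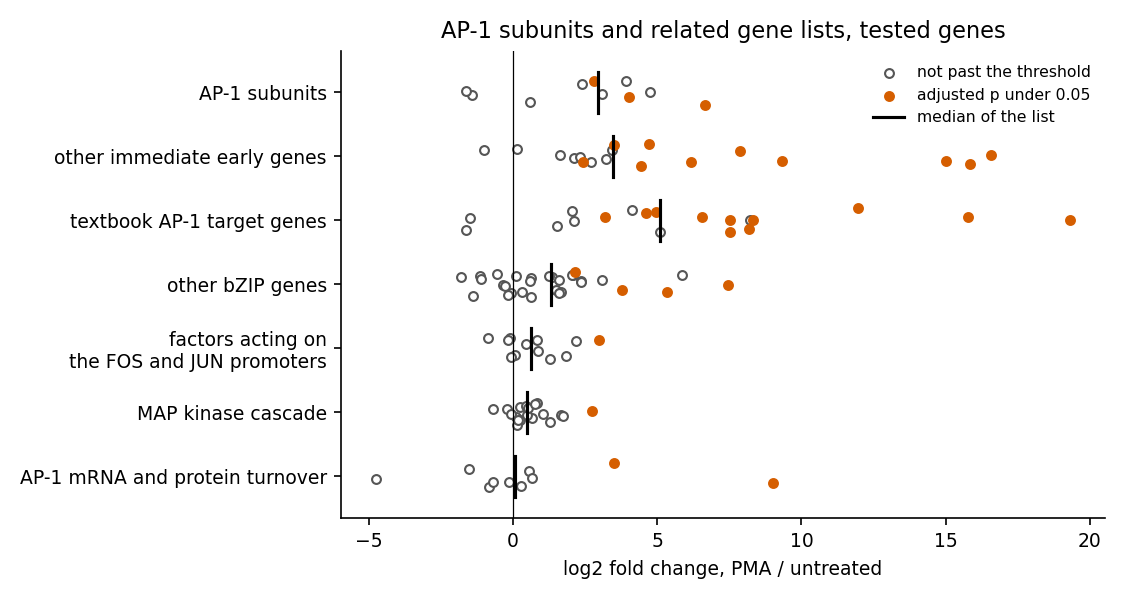
Log2 fold change of each tested gene (points), by list, from the edgeR fit on 4 libraries without the lot; filled points are past an adjusted p of 0.05 and the vertical bars are list medians, 2.94 for the AP-1 subunits, 3.47 for other immediate early genes and 5.11 for textbook AP-1 targets. Fitted values of genes at 0 in the untreated libraries, such as MMP9, EGR2 and NR4A3, rest on a prior count and their place on the axis is not a measured size; height within a list is jitter.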

How the data were processed

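RNA was measured in 4 libraries, 2 without and 2 with PMA, 1 of each from 2 lots. Per the submitters' processing notes, HISAT2 2.1.0 and StringTie 2.1.1 were used, with no roles given. Genome build, annotation and strand: not given in the sources used here. Per gene, the authors deposited estimated counts, which are whole numbers not scaled between libraries. Their second table holds a signal that is the deposited count times 1 factor per library, the authors' log2 ratio, and their p-value and q-value from a test that no source used here names. Its rank and 0 or 1 call per gene are deposited by the authors as other values.

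Genes were tested with edgeR 4.0.16 in R 4.3.3: TMM factors, filterByExpr by group (16451 genes kept), quasi-likelihood test, Benjamini-Hochberg adjustment, threshold 0.05. Each standard error is the fold change over the root of its F. Depth was 35739833 to 54915928 counts, so counting error, if the values are read counts, is small beside the spread between libraries except at the lowest levels. The labels mark the lot, which pairs the libraries. Deviations from the group means of same-lot libraries correlated at 0.216 across genes (log2 of CPM plus 0.5), and a fit blocked on lot was an alternative. Separate culture of the lots is not stated, so p-values reflect only how these libraries vary, and that variation may be technical. Other alternatives were RLE and upper-quartile factors, no filter, limma-voom (limma 3.58.1), DESeq2 1.42.0, at least 5 CPM in 2 libraries or more, a threshold of 0.01, and leaving out each library. The scripts were tested on simulated data.

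The members and lists were chosen with earlier results of these data known. Named genes are the 10 subunits and up to 4 called genes with the smallest p in each list, plus any called in the minority direction, with EGR1, IER2, IRF4, SRF, PLAU, MT2A and the markers named after their values were seen. 1 gene under this rule is not reported here. Transcript lengths came from GENCODE release 29, which may not be the authors' annotation, and promoters from RefSeq.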

Additional observations from a re-analysis of the deposited data

Results flagged for a closer look

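FOSL1 stood out because its log2 ratio of PMA to untreated had opposite signs in the lots, though the value in lot 2 was near 0. The log2 ratio was 2.44 in lot 1 and −0.13 in lot 2. The difference was not tested, since each lot holds 1 library per treatment. The untreated levels, 3.26 CPM (206 counts) in lot 1 and 22.1 CPM (955 counts) in lot 2, differed more than the PMA levels of 17.7 and 20.3 CPM.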

How the results depend on the processing

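With 2 libraries per group, the number of subunits called depends on the fit. Against 3 higher and 0 lower, 6 were higher with no filter, with the filter of 5 CPM and with the lot as replicate block, 5 with limma-voom, 7 with DESeq2 (1 lower) and 0 at an adjusted p under 0.01. Leaving out 1 library at a time gave 1 to 5 higher and 0 to 2 lower, with 1 higher without PMA lot 2, 5 without each of the others and 2 lower without untreated lot 1; the lone library left in a group is assumed to vary like the other group. The block changed the call of FOS, JUNB and JUND and of no other subunit. RLE and upper-quartile factors kept every direction of the 10 fold changes, upper-quartile factors ended the call of JUN, and they moved the median of all genes to −0.17. The log2 fold change of FOSL1 was −0.28 to 2.54 without 1 library, the lowest without untreated lot 1. Calls over all genes moved with the fit as well. In the main fit 4.29% were higher and 2.02% lower, with the block 3.59% and 1.48%, and with DESeq2 13.1% and 10.3%. With no filter 782 genes were higher and 371 lower, and with the filter of 5 CPM 974 were higher. For all genes, against 705 higher and 332 lower, DESeq2 called 2193 and 1712, limma-voom 1149 and 636, and the threshold of 0.01 called 0 and 0, the filter of 5 CPM called 721 lower, and leaving out 1 library gave 424 to 1830 higher and 79 to 1085 lower, lowest without PMA lot 2 and highest without untreated lot 1. Of the lists, other bZIP genes had 4 calls, 14 with DESeq2, 7 with limma-voom, and 2 to 12 without 1 library (the same libraries). The MAP kinase cascade had 1, 2 with no filter, 3 with 5 CPM and with limma-voom, 4 with DESeq2, and 0 to 4 without 1 library (0 without either PMA library, 4 without untreated lot 1). The promoter factors had 1, 3 with DESeq2, and 0 to 3 without 1 library (likewise). The turnover genes had 2, and 1 to 3 without 1 library (1 without PMA lot 2), and the BATF partners 1, and 0 to 1 without 1 library (0 without either PMA library). At 0.01 each list had 0 calls. Since the calls over all genes moved with the same fits, a higher or lower count in a list is no result about that list. The causes were not tested. Depth limits the lowest levels: 1 count is worth 0.0158 to 0.0307 CPM.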
